A study of Mus musculus with 56 samples.

Results

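Toll-like receptors are transmembrane proteins of innate immune cells that bind conserved molecules of microbes and signal through a cytoplasmic domain shared with the interleukin-1 receptor. In mice, TLR1, TLR2, TLR4 and TLR6 sit mainly at the cell surface and bind bacterial lipoproteins and lipopolysaccharide. TLR3, TLR7, TLR8, TLR9, TLR11 and TLR13 act in endosomes, which they reach with the chaperone UNC93B1, and bind nucleic acids or, for TLR11, the profilin of Toxoplasma. Most of the family signals through the adaptor MyD88, whereas TLR3 uses TRIF. Blood progenitors are known to express part of the family before they mature.

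The 10 genes examined here are Tlr1, Tlr2, Tlr3, Tlr4, Tlr6, Tlr7, Tlr8, Tlr9, Tlr11 and Tlr13. They were taken by symbol, and all 10 were found among the 24424 genes of the RNA-seq table. RNA was read in granulocyte-macrophage progenitors (GMP) and multipotent progenitors (MPP) sorted from bone marrow of C57BL/6 mice. T2F3 mice are labelled Tet2-/-Flt3ITD, that is, without the 5-methylcytosine oxidase Tet2 and with an internal tandem duplication of the receptor tyrosine kinase gene Flt3. The titles of all 15 libraries, T2F3 and WT alike, begin with the word leukemia. The table held 3 T2F3 GMP, 5 WT GMP, 3 T2F3 MPP and 4 WT MPP libraries, WT being wild type with no further allele or agent named. GMP were gated as lineage-negative, Sca-1-negative, c-Kit-positive cells carrying CD34 and CD16/32, and MPP as lineage-negative, Sca-1-positive, c-Kit-positive cells carrying CD48 and lacking CD150. Ages and the animals behind each library are not given in the sources used here, and a p-value here sets a difference against library spread alone, part of which may be technical.

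Levels are the authors' regularized log2 values, which pull genes with few reads towards their mean and are not scaled to gene length, so levels are compared here within a gene and not between genes. Differences are on the same log2 scale, with the SE of a limma model fitted to the 15 libraries and all 12133 genes whose mean level was at least 4, and a gene was called at a Benjamini-Hochberg adjusted p under 0.05. All 10 receptors passed that filter. Read depth is not known, as the table gives no counts. Of the gate genes, the CD16/32 genes Fcgr3 and Fcgr2b were higher and the Sca-1 gene Ly6a was lower in GMP than in MPP in both genotypes, in the direction of the sort. Cd34 was lower in GMP in both genotypes, and Kit was lower in WT GMP than in WT MPP (-0.78, limma adjusted p = 9.16e-05). The granule genes Mpo and Elane, which no gate used, were higher in GMP in both. The transcript of Slamf1, which encodes CD150, was below the filter. Gate genes also differed between genotypes. In T2F3 MPP, Cd48 (1.53, limma adjusted p = 6.70e-06), Fcgr2b (0.78, 7.35e-05) and Ly6a (0.63, 7.70e-04) were higher than in WT, and Kit was lower (-0.92, 1.63e-04). In T2F3 GMP, Cd48 (0.685, limma adjusted p = 0.0100) and Ly6a (0.49, 0.00655) were higher. Cd34 and Fcgr3 passed in neither population. Whether the sorted cells differed in make-up was not tested. In 2 libraries, WT GMP 1 and T2F3 GMP 2, ribosomal protein genes lay above their group mean, by a median of 0.87 and 0.56 over 36 genes, and receptor results that change without both libraries are given both ways. Of these 36 genes, 28 rose in T2F3 MPP (median difference 0.72) and 0 in T2F3 GMP, beside 20.7% and 9.25% of all tested genes. Their part in the receptor differences was not tested.

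Most of the receptors were higher in T2F3 in both populations. In GMP, 8 of 10 receptors rose in T2F3 and 0 fell, where 9.25% of all tested genes rose and 6.04% fell. In MPP, 8 of 10 rose and 0 fell, where 20.7% of all tested genes rose and 19.6% fell, and they were the same 8: Tlr1, Tlr2, Tlr3, Tlr6, Tlr8, Tlr9, Tlr11 and Tlr13. Genes higher in both populations made up 6.67% of those tested. The median difference, T2F3 minus WT, over the 10 receptors was 0.82 in GMP and 1.02 in MPP, beside medians of -0.019 and -0.015 over all tested genes. Without WT GMP 1 and T2F3 GMP 2 the counts were 8 in GMP and 9 in MPP. Calls over all genes rose then too, to 2174 of 12140 in GMP (1274 higher) and 6693 in MPP (3455 higher). With all libraries they were 1855 and 4889 of 12133. Median centring of the libraries left 7 receptors called in MPP, without Tlr6, and 40.2% of all genes called there were then higher in T2F3, against 51.3% for the values as deposited. Every T2F3 library lay above every WT library for 8 receptors in GMP, as for 9.52% of tested genes, while 17.0% lay apart in either direction and 7.49% below. In MPP this held for 9 receptors, as for 28.1% of tested genes, while 54.1% lay apart in either direction and 26.0% below.

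**Figure D1:**
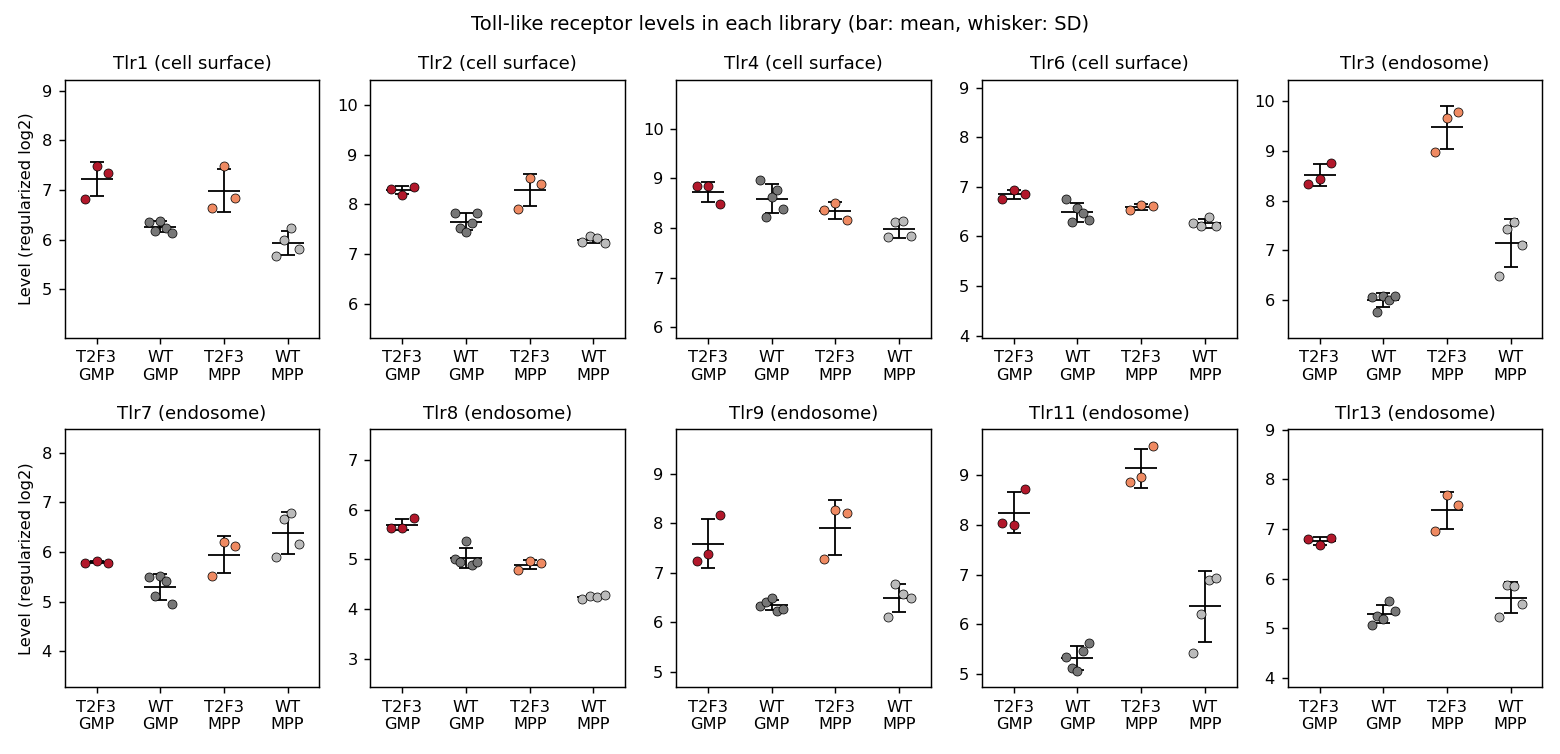
Each panel plots 1 receptor, with the regularized log2 level on the vertical axis (every panel spans the same range) and the 4 groups along the horizontal axis, T2F3 left of WT. Points are libraries, bars are group means and whiskers are SD. Tlr11 and Tlr3 show the widest gap between genotypes, while Tlr4 overlaps between T2F3 GMP and WT GMP and Tlr7 overlaps between T2F3 MPP and WT MPP.

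Among the endosomal receptors, Tlr11 and Tlr3 had the largest rises of the 10. Tlr11 was read at 8.03, 7.99 and 8.72 in T2F3 GMP, against 5.33, 5.12, 5.06, 5.46 and 5.63 in WT GMP. In MPP it was read at 8.87, 8.96 and 9.59 in T2F3, against 5.42, 6.21, 6.89 and 6.93 in WT. Every T2F3 library thus lay above every WT library of its population, and WT MPP spread over more than 1 log2 unit, with WT MPP 1 lowest. The difference was 2.93 ± 0.29 in GMP (SE, 7.61-fold, limma adjusted p = 2.29e-06) and 2.78 ± 0.30 in MPP (6.86-fold, adjusted p = 4.18e-06). Of 12133 genes ranked by their rise, Tlr11 was number 8 in GMP and number 27 in MPP.

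Tlr3, the receptor for double-stranded RNA, was read at 8.33, 8.44 and 8.76 in T2F3 GMP, against 6.06, 5.76, 6.07, 6.00 and 6.08 in WT GMP. In MPP its levels were 8.97, 9.66 and 9.78 in T2F3 and 6.47, 7.42, 7.56 and 7.11 in WT. The genotypes did not overlap in either population, and T2F3 GMP, although the lower of the T2F3 groups, lay above every WT MPP library. The rise was 2.51 ± 0.21 in GMP (SE, 5.71-fold, limma adjusted p = 5.06e-07) and 2.33 ± 0.22 in MPP (5.03-fold, adjusted p = 1.06e-06). Rises of over 2 log2 units, as in Tlr11 and Tlr3, were called in 0.577% of tested genes in GMP and 0.816% in MPP.

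Tlr13, which in mice binds bacterial ribosomal RNA, was read at 6.80, 6.67 and 6.81 in T2F3 GMP, against 5.06, 5.24, 5.18, 5.54 and 5.35 in WT GMP. In MPP it stood at 6.95, 7.68 and 7.49 in T2F3 and at 5.23, 5.88, 5.85 and 5.49 in WT. Its groups lay apart in both populations, and the rises were 1.49 ± 0.17 in GMP (SE, limma adjusted p = 1.36e-05) and 1.76 ± 0.18 in MPP (adjusted p = 2.25e-06). Tlr9, the receptor for unmethylated CpG DNA, stood at 7.23, 7.37 and 8.16 in T2F3 GMP and at 6.34, 6.42, 6.49, 6.22 and 6.28 in WT GMP. In MPP Tlr9 was read at 7.27, 8.27 and 8.20 in T2F3, against 6.11, 6.78, 6.58 and 6.49 in WT. T2F3 GMP 3 was the high library of its group and T2F3 MPP 1 the low one, and neither reached the WT range. The rises were 1.24 ± 0.23 in GMP (SE, 2.36-fold, limma adjusted p = 0.00123) and 1.42 ± 0.24 in MPP (2.68-fold, adjusted p = 3.08e-04).

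Tlr8, an endosomal receptor related to Tlr7, rose by less. It was read at 5.63, 5.64 and 5.84 in T2F3 GMP, against 5.00, 4.94, 5.37, 4.88 and 4.94 in WT GMP. In MPP it stood at 4.79, 4.97 and 4.92 in T2F3 and at 4.20, 4.27, 4.25 and 4.28 in WT. The groups did not overlap in either population, and the rises were 0.68 ± 0.12 in GMP (SE, 1.6-fold, limma adjusted p = 9.91e-04) and 0.64 ± 0.13 in MPP (1.56-fold, adjusted p = 0.00125). The WT MPP levels of Tlr8 lay close to the filter of 4, and the regularized log pulls the differences of genes with few reads towards 0.

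Tlr7, which binds single-stranded RNA and lies next to Tlr8 on the X chromosome, did not pass in either population. It was read at 5.78, 5.82 and 5.78 in T2F3 GMP, against 5.49, 5.11, 5.52, 5.41 and 4.94 in WT GMP. In MPP the levels were 5.52, 6.19 and 6.12 in T2F3 and 5.89, 6.66, 6.79 and 6.16 in WT. T2F3 GMP lay above WT GMP without overlap, while the MPP groups overlapped with the lowest library in T2F3. The difference was 0.50 ± 0.20 in GMP (SE, limma adjusted p = 0.113) and -0.43 ± 0.21 in MPP (adjusted p = 0.114). Without WT MPP 1 the MPP difference was -0.59, with an adjusted p of 0.0411, so the call rests on that library.

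Of the surface receptors, Tlr2 and Tlr1 rose in both populations; TLR2 pairs with TLR1 or TLR6 to bind lipoproteins. Tlr2 was read at 8.31, 8.19 and 8.34 in T2F3 GMP, against 7.82, 7.53, 7.44, 7.62 and 7.83 in WT GMP. In MPP it stood at 7.91, 8.53 and 8.40 in T2F3 and at 7.25, 7.36, 7.32 and 7.22 in WT. T2F3 lay above WT without overlap in both populations, by 0.64 ± 0.12 in GMP (SE, 1.55-fold, limma adjusted p = 0.00219) and by 0.99 ± 0.13 in MPP (1.99-fold, adjusted p = 3.18e-05). Tlr1 ran from 6.82 to 7.49 in T2F3 GMP and from 6.14 to 6.38 in WT GMP, and from 6.63 to 7.48 in T2F3 MPP and from 5.67 to 6.24 in WT MPP. Its rises were 0.96 ± 0.18 in GMP (SE, 1.95-fold, limma adjusted p = 0.00176) and 1.06 ± 0.19 in MPP (2.08-fold, adjusted p = 6.70e-04).

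Tlr6 and Tlr4 changed least. Tlr6 ran from 6.75 to 6.94 in T2F3 GMP and from 6.29 to 6.75 in WT GMP, ranges that overlapped at their edge, and from 6.53 to 6.64 in T2F3 MPP and from 6.20 to 6.40 in WT MPP. It was called at 0.36 ± 0.11 in GMP (SE, 1.29-fold, limma adjusted p = 0.0365) and 0.33 ± 0.12 in MPP (1.26-fold, adjusted p = 0.0335). These calls were lost when single libraries were left out. In GMP the adjusted p was 0.153 without T2F3 GMP 2, 0.0786 without T2F3 GMP 3, 0.0830 without WT GMP 2, 0.0635 without WT GMP 4 and 0.0846 without WT GMP 5. In MPP it was 0.104 without T2F3 MPP 2, 0.0944 without T2F3 MPP 3, 0.0619 without WT MPP 1, 0.0748 without WT MPP 3 and 0.0689 without WT MPP 5. Tlr6 lies beside Tlr1, whose sequence is closely related, and its span overlaps that of Fam114a1 in the GRCm38.p6 gene table; how the authors counted shared reads is not given in the sources used here, so the split between these genes is uncertain.

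Tlr4, the lipopolysaccharide receptor, was read at 8.84, 8.85 and 8.49 in T2F3 GMP, against 8.97, 8.22, 8.62, 8.76 and 8.39 in WT GMP. The groups overlapped throughout, with a difference of 0.13 ± 0.15 (SE, limma adjusted p = 0.598). In MPP Tlr4 stood at 8.37, 8.51 and 8.17 in T2F3 and at 7.82, 8.12, 8.14 and 7.83 in WT, which lay apart by a small margin. The MPP difference of 0.37 ± 0.16 (SE) had a limma adjusted p of 0.0726, and of 0.0325 without WT GMP 1, a library that enters it through the shared estimate of spread. It was 0.0257 without both WT GMP 1 and T2F3 GMP 2.

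**Figure D2:**
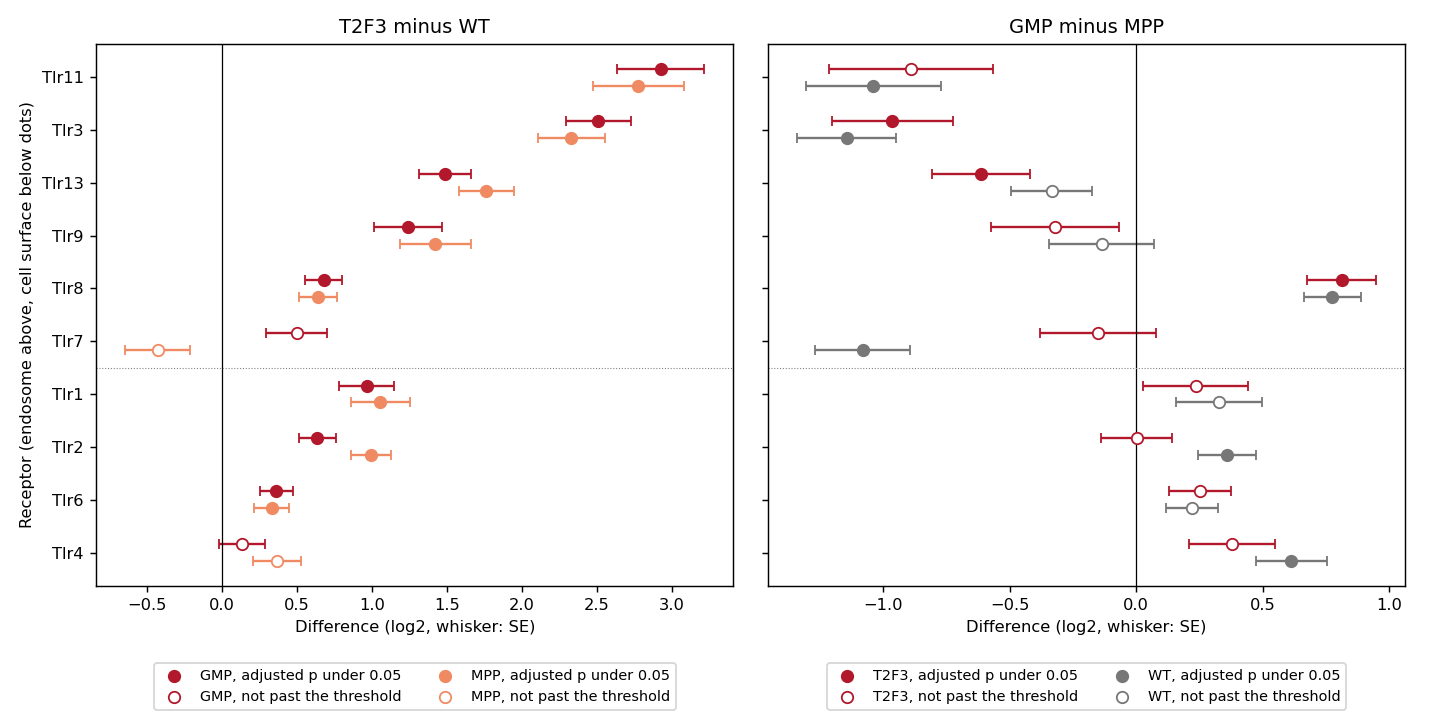
Points give the difference in log2 units for each receptor and whiskers the limma SE, with T2F3 minus WT on the left (GMP and MPP) and GMP minus MPP on the right (T2F3 and WT). Filled points passed an adjusted p of 0.05 and open points did not; on the left the filled points all lie to the right of 0, and on the right they lie on both sides.

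The genotype effect was then compared between the populations by the interaction term, GMP minus MPP. By limma 0 of 10 receptors passed at an adjusted p of 0.05, where 2.26% of all tested genes did (1.38% positive and 0.882% negative). An unadjusted p under 0.05 was found for 1 receptor, Tlr7, and for 19.2% of all tested genes. For Tlr7 the effects differed by 0.93 ± 0.30 (SE, limma adjusted p = 0.111), as it stood higher in T2F3 GMP and lower in T2F3 MPP than in the matching WT group. Tlr2 came next, with a difference of effects of -0.36 ± 0.18 (SE, adjusted p = 0.291). For Tlr11 and Tlr3 the differences were 0.15 ± 0.42 and 0.18 ± 0.31 (SE). An effect that missed the threshold in this test is not shown to be equal in the populations.

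The step between populations, GMP minus MPP, ran in both directions among the receptors. In WT, 3 receptors were higher in GMP than in MPP (Tlr2, Tlr4 and Tlr8) and 3 were lower (Tlr3, Tlr7 and Tlr11), where 25.4% of all tested genes were higher and 23.2% lower, 48.6% together. After centring, 42.2% of the genes called in this step were higher in GMP, against 52.2% as deposited. In T2F3, Tlr8 was higher in GMP and Tlr3 and Tlr13 were lower, where 10.5% of tested genes were higher and 11.7% lower, 22.2% together. The shares of receptors called in this step thus lay near those of all tested genes. 

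Tlr8 was 0.81 ± 0.14 higher in T2F3 GMP than in T2F3 MPP (SE, limma adjusted p = 2.82e-04), and 0.78 ± 0.11 higher in WT GMP than in WT MPP (adjusted p = 2.75e-05). Tlr3 differed the other way, by -0.96 ± 0.24 in T2F3 (SE, limma adjusted p = 0.00719) and by -1.14 ± 0.20 in WT (adjusted p = 1.60e-04). In both genes every GMP library lay on one side of every MPP library of the same genotype, as did 33.5% of tested genes in T2F3 (16.1% above and 17.4% below) and 43.0% in WT (22.6% above and 20.4% below). Tlr7 was 2.11-fold lower in WT GMP than in WT MPP (-1.08 ± 0.19, SE, limma adjusted p = 1.84e-04), and stood at -0.15 ± 0.23 in T2F3 (adjusted p = 0.721).

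Tlr11 differed by -0.89 ± 0.32 between T2F3 GMP and T2F3 MPP (SE, limma adjusted p = 0.0602) and by -1.04 ± 0.27 between WT GMP and WT MPP (adjusted p = 0.00417). The T2F3 value passed without T2F3 GMP 3 (-1.13, adjusted p = 0.0288) and without WT MPP 1 (adjusted p = 0.0164), and also with a pseudocount of 8 (0.0452), under array weights (0.0349) and with only the compared groups (0.0277). For Tlr13 the step was -0.61 ± 0.20 in T2F3 (SE, limma adjusted p = 0.0314) and -0.33 ± 0.16 in WT (adjusted p = 0.0941). The T2F3 call for Tlr13 was lost without any 1 of the 3 T2F3 GMP libraries (adjusted p = 0.0681, 0.0798 and 0.0558 without replicates 1, 2 and 3) and without T2F3 MPP 2 (0.151) or T2F3 MPP 3 (0.109). It was also lost with no filter (0.0880) and under quantile normalization (-0.52, adjusted p = 0.0986). The WT value passed without WT MPP 1 (-0.46, adjusted p = 0.0303) and after median centring (-0.40, adjusted p = 0.0467).

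Tlr4 and Tlr2 rose in the WT step, by 0.61 ± 0.14 (SE, limma adjusted p = 0.00167) and by 0.36 ± 0.12 (adjusted p = 0.0166). In T2F3 the same step was 0.38 ± 0.17 for Tlr4 (adjusted p = 0.130, and 0.0225 under array weights) and 0.00 ± 0.14 for Tlr2 (adjusted p = 0.994). Tlr1, Tlr6 and Tlr9 did not pass in either genotype in the model used throughout, but each did under some alternatives. Tlr6 passed in WT without WT GMP 2 (0.27, adjusted p = 0.0463), and in both genotypes under quantile normalization (0.40 in T2F3, adjusted p = 0.0156, and 0.47 in WT, adjusted p = 6.31e-04). Tlr1 passed in WT under quantile normalization (0.61, adjusted p = 0.00869) and with only the compared groups (0.33, adjusted p = 0.0406), and Tlr9 passed in T2F3 under array weights (-0.73, adjusted p = 0.00950).

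Ordered by mean level, the groups ran the same way for Tlr3, Tlr9, Tlr11 and Tlr13: T2F3 MPP, T2F3 GMP, WT MPP, WT GMP. For Tlr3 all neighbours in that order lay apart. For Tlr11 and Tlr13 the WT groups overlapped, and for Tlr9 both the T2F3 groups and the WT groups did. Tlr1, Tlr2 and Tlr6 shared another order, T2F3 GMP, T2F3 MPP, WT GMP, WT MPP, in which the T2F3 groups of Tlr2 averaged 8.28 each. Tlr4 and Tlr8 ran T2F3 GMP, WT GMP, T2F3 MPP, WT MPP, so that population came before genotype, and T2F3 MPP overlapped WT GMP in both genes. Tlr7 alone of the 10 had its highest mean in WT MPP, at 6.38 ± 0.42 (SD, n = 4), above 5.94 ± 0.37 in T2F3 MPP (SD, n = 3), with overlapping ranges.

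The 4 receptors with rises of over 1 log2 unit in both populations shared 1 order of groups, and the stretch around their start sites is shown for that reason. Sequences are from RefSeq, build GRCm38.p6, mostly upstream of each gene's start, 5′ to 3′ on the coding strand. The table matched 8 of the 10 receptors. Capitals mark matches on either strand to the PU.1 core GAGGAA, the AP-1 motif TGANTCA, the interferon response element (GAAA, NN, GAAA in a row), the ETS-IRF composite (GGAA, NN, GAAA in a row), the STAT palindrome TTCNNNGAA or the NF-kB consensus.
Tlr11 promoter, chr14:50357664-50357963, plus strand: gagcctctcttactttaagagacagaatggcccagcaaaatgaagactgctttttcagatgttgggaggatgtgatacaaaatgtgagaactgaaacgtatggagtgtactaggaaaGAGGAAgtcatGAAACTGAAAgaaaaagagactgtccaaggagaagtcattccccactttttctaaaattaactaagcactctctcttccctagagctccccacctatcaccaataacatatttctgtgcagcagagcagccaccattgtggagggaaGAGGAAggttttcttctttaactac
Tlr3 promoter, chr8:45410331-45410630, minus strand: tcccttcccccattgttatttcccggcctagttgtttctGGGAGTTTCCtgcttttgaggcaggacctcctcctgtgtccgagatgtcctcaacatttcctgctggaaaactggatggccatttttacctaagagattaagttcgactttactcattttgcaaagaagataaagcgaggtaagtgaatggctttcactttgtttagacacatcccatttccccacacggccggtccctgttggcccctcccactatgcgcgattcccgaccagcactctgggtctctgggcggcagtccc
Tlr13 promoter, chrX:106143025-106143324, plus strand: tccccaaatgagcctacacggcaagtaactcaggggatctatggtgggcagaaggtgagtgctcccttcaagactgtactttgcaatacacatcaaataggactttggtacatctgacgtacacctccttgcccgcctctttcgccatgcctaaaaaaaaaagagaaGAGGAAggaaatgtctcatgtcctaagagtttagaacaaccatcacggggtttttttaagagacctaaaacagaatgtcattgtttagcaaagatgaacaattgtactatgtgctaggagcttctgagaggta
Tlr9 promoter, chr9:106222348-106222647, plus strand: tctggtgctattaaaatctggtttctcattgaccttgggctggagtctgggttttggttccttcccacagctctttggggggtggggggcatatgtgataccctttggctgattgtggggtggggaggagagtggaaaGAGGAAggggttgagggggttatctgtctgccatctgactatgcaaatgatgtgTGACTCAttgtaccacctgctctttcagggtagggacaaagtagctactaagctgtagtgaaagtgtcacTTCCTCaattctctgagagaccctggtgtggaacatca

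The PU.1 core stood in the windows of Tlr11, Tlr13 and Tlr9 and is not among the letters of the Tlr3 window; it is found in 28.3% of the 32851 promoter windows of the table. Tlr11 also held 1 interferon response element, a motif in 3.44% of windows, and Tlr9 held 1 AP-1 motif, in 7.81% of windows. The Tlr3 window held 1 match to the NF-kB consensus, as did 8.46% of windows. The STAT palindrome (8.30% of windows) and the ETS-IRF composite (2.72%) had no match in these windows. The PU.1 core and the composite both hold GGAA and can overlap in other windows. Among receptors with smaller rises, the PU.1 core also stood in windows of Tlr1 and Tlr8, so it was not confined to the windows printed. The interferon response element was matched in Tlr6, the NF-kB consensus in Tlr2, and the STAT palindrome in Tlr1, Tlr6 and Tlr8. The matches are letters only, and no binding was measured.

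Genes around the receptors were read from the same model, as lists chosen with earlier results of these data known. Among 7 co-receptors and related genes, T2F3 GMP had 4 rises and 0 falls, and T2F3 MPP also had 4 rises and 0 falls, where 15.3% and 40.3% of tested genes changed in either direction. Cd36, a scavenger receptor that assists TLR2 with TLR6, rose by 2.64 in GMP and by 2.94 in MPP (limma adjusted p = 3.90e-09 and 8.96e-10). The TLR4-like receptor Cd180 rose by 0.85 and 0.76 (adjusted p = 0.00169 and 0.00301), and its partner Ly86 by 0.89 and 1.51 (adjusted p = 0.00730 and 6.83e-05). Hmgb1, a nuclear protein that can act as a released ligand, rose in MPP by 0.42 (adjusted p = 0.00468) and stood at 0.10 in GMP (adjusted p = 0.540). Ly96, the TLR4 partner MD-2, made up the count in GMP, with a rise of 0.43 (adjusted p = 0.0371), a gene chosen after its values were seen.

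Of 15 chaperones and endosomal genes, 5 rose and 0 fell in GMP, and 7 rose and 1 fell in MPP, with list medians of 0.24 and 0.27, where 15.3% of all tested genes were called in GMP and 40.3% in MPP. Ctss, a lysosomal protease, rose by 1.65 and 1.88 in GMP and MPP (limma adjusted p = 3.69e-06 and 9.97e-07). Pld4, a nuclease that trims DNA in endosomes, rose by 0.97 and 1.59 (adjusted p = 0.00134 and 9.72e-06), and the protease Lgmn by 1.18 and 0.60 (adjusted p = 5.20e-04 and 0.0302). Unc93b1, the chaperone of the endosomal receptors, rose in MPP by 0.78 (adjusted p = 0.00108) and stood at 0.32 in GMP (adjusted p = 0.151). The 1 gene that fell, Pld3, a nuclease related to Pld4, was chosen after its values were seen (-0.65 in MPP, adjusted p = 0.00385).

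Of 21 adaptors and kinases, 2 rose and 0 fell in GMP, and 5 rose and 3 fell in MPP, with list medians of 0.014 and -0.004. Over all tested genes 15.3% were called in GMP and 40.3% in MPP, and the MPP count of this list is near that share. Myd88, the shared adaptor, rose in MPP by 0.63 (limma adjusted p = 6.44e-04) and stood at 0.22 in GMP (adjusted p = 0.198). The kinase gene Irak2 rose by 0.48 in GMP and 0.35 in MPP (adjusted p = 0.0101 and 0.0312). Btk, a tyrosine kinase, rose in MPP by 0.27 (adjusted p = 0.0106), and the adaptor Traf3 fell by 0.48 there (adjusted p = 0.0142). In GMP, Btk was at 0.00 and Traf3 at -0.35, neither past the threshold.

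Of 11 transcription factors listed with the receptors, 4 rose and 0 fell in GMP, and 4 rose and 1 fell in MPP. Calls over all tested genes were 15.3% and 40.3%. The 4 were the same in both: Irf5 (1.32 and 1.48), Irf7 (1.83 and 1.64), Irf8 (0.94 and 1.58) and Relb (0.95 and 0.72), given as GMP and MPP differences. Irf5 and Irf7 are interferon regulatory factors activated below MyD88, Irf8 is a lineage factor of monocytes and dendritic cells, and Relb is a subunit of NF-kB. The 1 that fell in MPP was Rela, another NF-kB subunit (-0.38, limma adjusted p = 0.0357), chosen after its values were seen. Spi1, the gene of PU.1, was also listed and stood at -0.09 in GMP and 0.31 in MPP (limma adjusted p = 0.682 and 0.0647). Of 13 tested negative regulators out of 15, 1 rose and 0 fell in GMP, and 3 rose and 2 fell in MPP, counts below the share of all genes in GMP and near it in MPP. Irak3, an inhibitory member of the IRAK family, fell in MPP by 0.75 (limma adjusted p = 2.05e-04), as did the ubiquitin ligase Rnf216 (-0.40, adjusted p = 0.0114). Socs1, a feedback inhibitor of cytokine signalling, rose in MPP by 0.99 (adjusted p = 2.37e-04). Zfp36, which destabilizes cytokine mRNA, rose in GMP by 0.52 (adjusted p = 9.61e-04). The untested regulators were Sarm1, whose genotypes overlapped in both populations, and Atf3. Without a test, Atf3 averaged 4.71 in T2F3 GMP against 2.835 in WT GMP, and 5.11 in T2F3 MPP against 2.91 in WT MPP.

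Of 24 genes inducible through the receptors, 11 passed the filter. In T2F3 GMP 3 of these rose and 0 fell, and in T2F3 MPP 5 rose and 3 fell, again beside 15.3% and 40.3% of all tested genes. The activation and costimulation genes Cd83 (2.52 and 2.95), Cd86 (2.36 and 2.49) and Cd40 (1.65 and 1.88) rose in GMP and MPP. Cd80 rose in MPP by 1.08 (limma adjusted p = 6.44e-04) and stood at 0.50 in GMP (adjusted p = 0.0816). The 3 that fell in MPP were Il12a (-0.77, limma adjusted p = 6.82e-04), Ier3 (-0.47, adjusted p = 0.0114) and Nfkbiz (-0.34, adjusted p = 0.0294). Tnf, Ccl3 and Ccl4 were tested and passed in neither population. Many cytokine genes of the list were among the 13 below the filter, including Il1b, Il6, Il10 and Ccl2, and Cxcl1 and Ifnb1 were listed at 0 in every library. Some of the 13 still differed in mean level, without a test, and are named after their values were seen. Il12b averaged 3.41 in T2F3 GMP against 2.15 in WT GMP, and 3.925 in T2F3 MPP against 2.16 in WT MPP. Cxcl10 averaged 4.54 in T2F3 MPP against 3.36 in WT MPP. Il6 was lower in T2F3 GMP, at 1.81 against 2.45 in WT GMP.

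**Figure D3:**
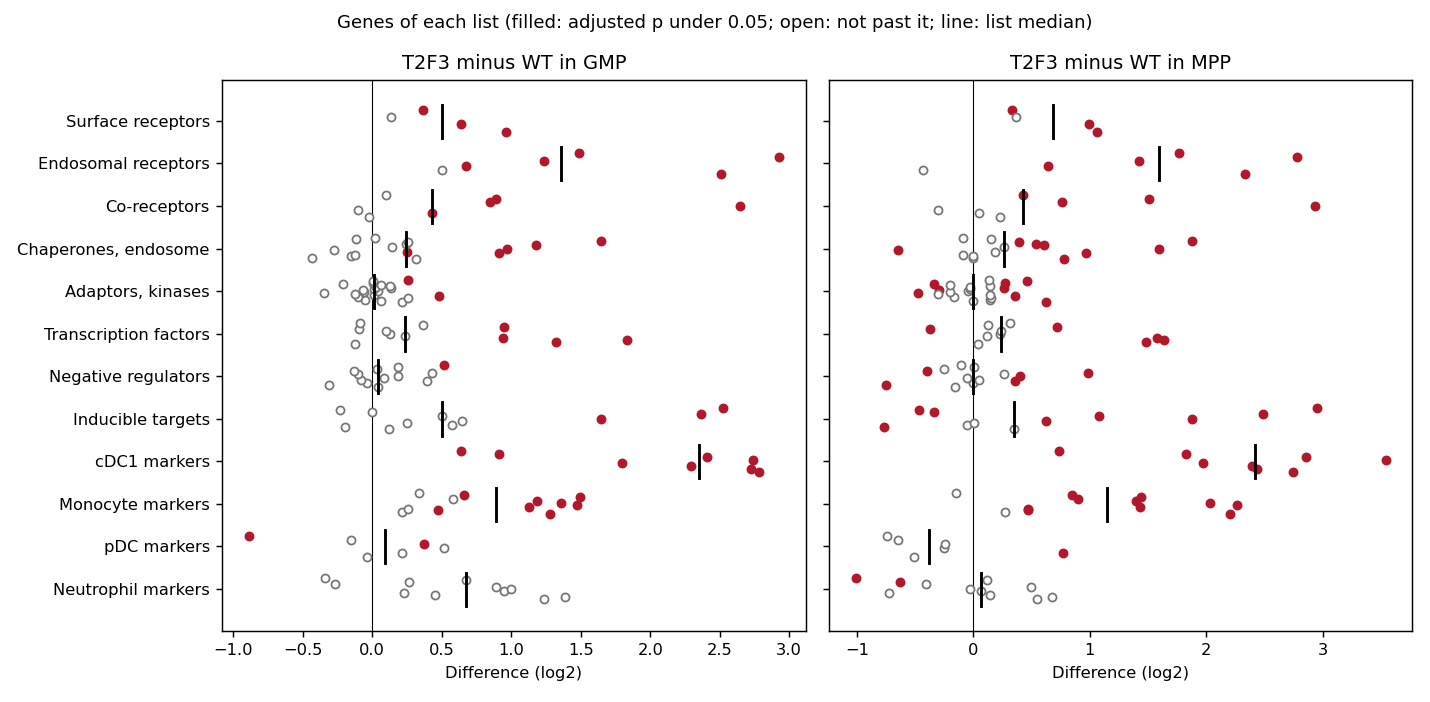
Each point is a tested gene, placed by its difference T2F3 minus WT in log2 units, for GMP on the left and MPP on the right, with 1 row per list and a black line at the list's median; the panels differ in scale. Filled points passed an adjusted p of 0.05. The endosomal receptors (medians 1.36 and 1.59) and the cDC1 markers (2.35 and 2.42) lie to the right, apart from Tlr7 at -0.43 in MPP. Adaptors and kinases (0.014 and -0.004) centre on 0.

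Lists of markers of mature cell types differed in their change with the genotype, from mostly raised to mostly lowered. All 8 markers of type 1 conventional dendritic cells (cDC1), which are known for TLR3 and TLR11, rose in T2F3 GMP and in T2F3 MPP, with medians of 2.35 and 2.42. Their summed level on the log2 scale ran from 13.50 to 13.80 in T2F3 GMP against 12.36 to 12.72 in WT GMP, and from 14.09 to 14.46 in T2F3 MPP against 12.68 to 13.02 in WT MPP. Of 12 monocyte and macrophage markers, 8 rose in GMP and 10 in MPP and 0 fell, with summed levels of 15.24 to 15.37 in T2F3 GMP, 14.47 to 14.68 in WT GMP, 14.03 to 14.87 in T2F3 MPP and 12.89 to 13.43 in WT MPP. No marker of these lists was at 0 or below the filter. The sums mainly follow the genes with the highest levels. For cDC1 in WT GMP these were Wdfy4 (mean 11.89) and Ppt1 (10.42), while Xcr1 (5.28), Cadm1 (4.26) and Batf3 (4.03) added little. The cDC2 list of 7 had 2 rises and 0 falls in GMP and 3 rises and 1 fall in MPP. Over all tested genes, 9.25% rose and 6.04% fell in GMP, and 20.7% rose and 19.6% fell in MPP.

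Plasmacytoid dendritic cells, known for TLR7 and TLR9, had 6 of 9 markers above the filter, of which 1 rose and 1 fell in GMP and 1 rose and 0 fell in MPP. Klk1, Cox6a2 and Pacsin1 were below it. Their summed level ran from 10.22 to 10.65 in T2F3 GMP and from 10.05 to 10.24 in WT GMP, and from 10.56 to 11.08 in T2F3 MPP and from 10.82 to 10.92 in WT MPP, and the genotypes overlapped in both populations. Of 11 neutrophil markers 0 rose in either population and 2 fell in MPP, with list medians of 0.67 in GMP and 0.06 in MPP. Their summed level spread widely, from 16.46 to 18.61 in T2F3 GMP and from 15.51 to 17.38 in WT GMP. In MPP it ran from 13.70 to 14.75 in T2F3 and from 13.61 to 14.20 in WT. Of 5 tested B cell markers, 3 fell in GMP and 4 in MPP. All 6 tested erythroid markers fell in both populations. Of 3 tested T and NK cell markers, 0 changed in GMP, and 1 rose and 1 fell in MPP. Over all tested genes 15.3% were called in GMP and 40.3% in MPP. The MPP counts of the plasmacytoid and neutrophil lists lay below that share. In sorted bulk populations, more cells of a type and more RNA per cell cannot be told apart, and the part of these cells in the receptor differences was not tested.

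The genes most like each receptor were ranked by Pearson r over the 15 libraries, which fall into 4 groups, so that the r of the deviations from group means is given beside it for the nearest gene. They are descriptions with no test. Nearest to Tlr11 was Xcr1 (r = 0.988, deviations 0.879), a chemokine receptor of cDC1, followed by Gpr141b and Septin3. Nearest to Tlr3 were Gpr141b (r = 0.996, deviations 0.927), Havcr2, which encodes the immune receptor TIM-3, and Grap2, a signalling adaptor. Tlr13 was followed by the serotonin receptor gene Htr7 (r = 0.987, deviations 0.821), Adgrg5 and Naaa, and Tlr9 by Ifi207 (r = 0.977, deviations 0.938) and Nccrp1.

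The surface receptors had other neighbours. Tlr2 was nearest to the galectin gene Lgals3 (r = 0.976, deviations 0.852), the ceramidase gene Asah1 and the chemokine receptor gene Ccr2. Tlr1 was nearest to Opn3 (r = 0.963, deviations 0.836), Ptpro and Ms4a4c, and Tlr6 to Ms4a6b (r = 0.917, deviations 0.695), Tifa and the lectin gene Clec7a. Tlr4 was nearest to Ypel5 (r = 0.963, deviations 0.887), Cept1 and Rpe, whose genotype differences were 0.49 or less in both populations. For the remaining endosomal genes, Tlr8 was nearest to the integrin gene Itga1 (r = 0.973, deviations 0.739), Pik3r6 (0.955, deviations 0.523) and Cd300lb (0.946, deviations 0.212), so that the last of these followed it mainly between groups. Tlr7 was nearest to Klhl24 (r = 0.925, deviations 0.717), Sp4 and Trp53inp1, each of which stood higher in T2F3 GMP and lower in T2F3 MPP than in WT.

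Within groups the receptors also varied together in part. Over the 45 pairs of receptors, the r of deviations from group means had a median of 0.40 and was above 0 in 40 pairs. It ran from -0.14 for Tlr4 with Tlr9 to 0.81 for Tlr3 with Tlr7. No background over all pairs of genes was computed. In T2F3 MPP 1 the levels of 9 of 10 receptors lay below their group mean, by a median of 0.36 log2 units. In WT MPP 1 all 10 did, by a median of 0.32. Across all tested genes the median deviation was -0.02 in T2F3 MPP 1 (SD 0.20) and 0.0 in WT MPP 1 (SD 0.13). The share of all genes below their group mean was not computed. The median deviation of the ribosomal protein genes was -0.02 in T2F3 MPP 1 and 0.01 in WT MPP 1.

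Of the family outside the list of 10, Tlr12, which acts with TLR11 in mice, rose by 1.15 ± 0.18 in T2F3 GMP (SE, 2.21-fold, limma adjusted p = 3.12e-04) and by 0.77 ± 0.19 in T2F3 MPP (1.70-fold, adjusted p = 0.00563). Tlr5, the flagellin receptor, had a mean of 3.55 ± 0.18 in T2F3 GMP (SD, n = 3), 3.45 ± 0.03 in WT GMP (SD, n = 5), 3.13 ± 0.24 in T2F3 MPP (SD, n = 3) and 2.99 ± 0.20 in WT MPP (SD, n = 4), with ranges that overlapped between the genotypes in each population, and was below the filter.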

How the data were processed

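Per the labels' protocols, sorted GMP and MPP were made into RNA-seq libraries with an Illumina kit for stranded mRNA. The authors deposited 1 table of regularized log2 expression values per gene and library, the scale being read from its name. The submitters' processing notes name mm9, STAR, Bowtie, HOMER and DESeq2, but no version, role or setting. Columns were assigned to samples by name. Of 24424 Entrez IDs, 24345 matched a symbol in the GRCm38.p6 gene table. The 41 other samples of the 56 were not analysed here.

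Testing was limited to the 12133 genes averaging 4 or more across the 15 libraries. A group-means model in limma 3.58.1 under R 4.3.3, with trended and robust eBayes moderation, gave 5 contrasts: T2F3 minus WT in GMP and in MPP, the difference of these effects, and GMP minus MPP in T2F3 and in WT. All p-values are two-sided and were adjusted over the tested genes by Benjamini and Hochberg's method. The fit was tested on simulated data. No 2 libraries were identical, and libraries of a group correlated across genes at 0.973 or more.

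All 10 receptors were named, with up to 4 called genes of each pathway list by smallest p and the 3 genes nearest each receptor by r, leaving out predicted genes; 1 gene that this rule names is not reported here. The receptors and lists were chosen with earlier results of these data known, and other genes were picked as examples after their values were seen. The results were recomputed with the filter dropped or raised to 6, with 8 added before the log, after median centring or quantile normalization, and with plain eBayes moderation, array weights, the compared groups alone, 2 forms of replicate block, each library left out, and WT GMP 1 and T2F3 GMP 2 left out together. Python 3.11.15 with Matplotlib 3.10.9 drew the figures, and pandas 2.3.3 and NumPy 2.4.6 made the tables.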

Additional observations from a re-analysis of the deposited data

Results flagged for a closer look

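Among the 20 sets of 4 or 5 WT libraries checked, 1 per receptor and WT group, 2 held a library far from the others, and chance gives about 1 in 20. Tlr3 in WT GMP 2 was 5.76, below the other WT GMP libraries, which ran from 6.00 to 6.08. Tlr8 in WT GMP 3 was 5.37, above the others of that group, which ran from 4.88 to 5.00. Neither library reached the T2F3 GMP range of the gene, and no receptor's genotype effect differed between GMP and MPP past the threshold.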

How the results depend on the processing

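The rises of Tlr1, Tlr2, Tlr3, Tlr8, Tlr9, Tlr11 and Tlr13 in T2F3 kept their direction and call in GMP and in MPP under all alternatives that tested them. A minimum mean of 6 left Tlr7 and Tlr8 untested. The counts of receptors called in T2F3 against WT stayed between 7 and 8 in GMP and between 7 and 9 in MPP. In the T2F3 step 3 receptors were called, 6 under array weights and 2 to 4 with 1 library left out. Calls of Tlr6 in T2F3 against WT were also lost under quantile normalization and with only the groups compared in GMP, under centring in MPP, and under the number block in both. Tlr4 in MPP passed under array weights and with only the compared groups. The cause of these changes was not tested.

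For GMP, 1855 genes were called in T2F3 against WT, 4103 under array weights, 1180 with only the compared groups, and 1164 (without T2F3 GMP 2) to 3759 (without WT GMP 1) with 1 library left out. For MPP, 4889 were called, 7795 under array weights, and 2850 (without T2F3 MPP 2) to 5992 with 1 left out; without T2F3 MPP 3 it was 2884. In the T2F3 step 2690 genes were called, and 4389 under array weights. For the difference of effects it was 274, 140 with a minimum mean of 6, 1494 under array weights, 1205 without WT GMP 1 and T2F3 GMP 2, and 78 (without T2F3 MPP 3) to 583 (without T2F3 MPP 1) with 1 left out. It was 107 without T2F3 GMP 3, 131 without T2F3 MPP 2, 140 without WT MPP 1, 120 without WT MPP 3 and 125 without WT MPP 4. Centring raised the share of these calls that were positive to 74.5%, against 60.9%.

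With the replicate number as a block, 2732 genes were called in MPP and 1302 in GMP, and 7 receptors in each, without Tlr6. Equal numbers in GMP and MPP of a genotype deviated together in 5 of 7 pairs at r above 0.1 (0.06 to 0.46 over all pairs), not every library correlated best with its own number, and so the numbers were not taken as pairs. With genotype and number as 1 animal, 8 receptors were called in each. In the T2F3 step both blocks called Tlr11 (adjusted p = 0.00962 and 0.0400) beside the 3 others.

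Sign changes touched only differences that had not passed. Under quantile normalization the difference of effects was -0.061 for Tlr6, -0.076 for Tlr3, -0.198 for Tlr8 and -0.172 for Tlr11, the T2F3 step of Tlr7 was 0.047, and the WT steps of Tlr9 and Tlr13 were 0.10 and 0.001. Under array weights the difference of effects was -0.019 for Tlr6, -0.057 for Tlr3, -0.068 for Tlr8 and -0.037 for Tlr11, and the T2F3 steps of Tlr1 and Tlr2 were -0.16 and -0.11. Centring gave -0.009 for the T2F3 step of Tlr2. With 1 library left out, the difference of effects ran from -0.27 to 0.15 for Tlr1, -0.017 to 0.099 for Tlr6, -0.069 to 0.404 for Tlr3, -0.032 to 0.121 for Tlr8 and -0.088 to 0.464 for Tlr11, and the T2F3 step of Tlr2 from -0.18 to 0.13. The values hold no counts, so what depth limits could not be assessed.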
